A study of Arabidopsis thaliana with 12 samples.

Results

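The genes described here are the 55 of 23174 Arabidopsis thaliana genes whose deposited description contains the word proteasome or the phrase regulatory particle. They comprise 11 alpha and 7 beta subunits of the 20S core, 8 ATPases (RPT) and 12 non-ATPase subunits (RPN) of the regulatory particle, 8 assembly factors and regulators, and 9 genes of the COP9 signalosome and other proteins with the PCI domain, which the description also calls a proteasome component. Thus 38 of the 55 genes are counted here as subunits of the 26S proteasome. The other 17 are not, although AT5G45620 and AT4G19006 among them, grouped here with the PCI genes, stand in the fixed list of RPN subunits used below. RNA was sequenced from rosette leaves of ecotype Col-0 grown for 3 weeks at 23 °C. The design crosses genotype, WT (wild type) or the mutant atcyp18-2, with treatment, control or 47 °C for 1 h, and has 3 replicates for each of its 4 groups. The mutant is named after the cyclophilin gene AT2G36130, a peptidyl-prolyl isomerase gene, and the labels give neither its allele nor the number of plants per sample. No control is described as having spent the same hour in the chamber at 23 °C, so heat and that hour cannot be told apart. Nothing states that the replicates came from separate plants, and the p-values cover only the variation among these samples, part of which may be technical.

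The 26S proteasome degrades proteins tagged with chains of ubiquitin. Its barrel-shaped core is built of stacked rings of alpha subunits, which form the gates, and of beta subunits, some of which cut peptide bonds. On each end sits a regulatory particle whose RPT ring unfolds the substrate by ATP hydrolysis and whose RPN subunits recognise ubiquitin, remove it or scaffold the particle. The COP9 signalosome, a relative of the lid of the regulatory particle, removes the ubiquitin-like protein RUB from cullin ubiquitin ligases. Heat unfolds proteins in leaf cells, and those that chaperones do not refold are substrates of this system. Many Arabidopsis subunits are encoded by a pair of similar genes.

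Stretches upstream of 6 genes are shown because these genes carry the results below. PBC2, RPN13 and RPT3 are the core and regulatory particle subunits called higher after heat in both genotypes. RPN1A and RPN1B, the genes for the subunit RPN1, have the most matches to TGGGC, and FUS5 had the largest change. This choice was made after their values were seen. Each sequence runs 5′ to 3′ on the strand of its gene and ends at the base before the RefSeq start (FUS5 excepted), in assembly TAIR10.1. Capitals mark TGGGC or its reverse complement GCCCA, a core of promoter elements described for plant proteasome genes, and in the FUS5 stretch the heat shock element core GAANNTTC. The RPT3 stretch is 192 bases long, since the next gene ends there, and the FUS5 stretch of 30 bases lies inside the neighbouring gene AT1G02100 and ends its capitals 26 bases before the FUS5 start.
PBC2, chr1:29095770-29096019, plus strand: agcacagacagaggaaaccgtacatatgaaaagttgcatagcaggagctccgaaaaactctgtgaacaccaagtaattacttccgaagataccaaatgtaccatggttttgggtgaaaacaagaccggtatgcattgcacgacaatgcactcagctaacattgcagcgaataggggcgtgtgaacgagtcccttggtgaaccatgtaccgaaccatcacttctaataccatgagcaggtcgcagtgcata
RPN13, chr2:11315525-11315774, minus strand: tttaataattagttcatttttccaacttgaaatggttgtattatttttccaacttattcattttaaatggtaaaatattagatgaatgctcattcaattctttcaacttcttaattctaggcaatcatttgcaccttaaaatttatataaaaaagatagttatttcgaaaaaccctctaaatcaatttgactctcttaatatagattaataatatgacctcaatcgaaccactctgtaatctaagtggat
RPT3, chr5:23568860-23569051, plus strand: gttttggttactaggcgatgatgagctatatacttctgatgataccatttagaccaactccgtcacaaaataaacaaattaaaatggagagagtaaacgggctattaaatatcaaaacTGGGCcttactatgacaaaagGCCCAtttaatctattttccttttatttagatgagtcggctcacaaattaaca
RPN1A, chr2:8858712-8858961, plus strand: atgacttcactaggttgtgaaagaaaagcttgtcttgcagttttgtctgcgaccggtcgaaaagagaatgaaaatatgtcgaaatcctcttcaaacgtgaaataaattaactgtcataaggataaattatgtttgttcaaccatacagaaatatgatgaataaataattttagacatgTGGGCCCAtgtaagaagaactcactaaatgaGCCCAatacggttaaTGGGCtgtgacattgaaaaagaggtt
RPN1B, chr4:14072583-14072832, minus strand: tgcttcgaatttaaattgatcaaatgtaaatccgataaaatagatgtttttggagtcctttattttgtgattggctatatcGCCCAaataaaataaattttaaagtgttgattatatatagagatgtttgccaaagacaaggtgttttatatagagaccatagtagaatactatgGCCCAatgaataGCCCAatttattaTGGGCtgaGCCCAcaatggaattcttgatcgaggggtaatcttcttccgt
FUS5, chr1:389823-389852, minus strand: tgaaggaagaaGAATATTCaatagtctctc

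In windows of 300 bases (250 before the start and 50 after it), searched on both strands, TGGGC was found in 31 of the 55 genes, or 56.4%. It was found in 31.4% of the 16465 windows of genes that were tested for expression and in 23.9% of the 37898 windows of all nuclear genes. Among the 38 core and regulatory particle subunits the share was 57.9%. Of the 11 genes called higher in either heat comparison, 7 held the motif (63.6%), which is close to the share of the whole set. PBC2 and RPN13 held none in the printed 250 bases, RPT3 held 2, RPN1A held 4 and RPN1B held 5, where both strands of the palindrome TGGGCCCA in RPN1A count. GAANNTTC, whose matches cannot share a base with those of TGGGC, was found in 9 of 55 windows (16.4%) against 11.4% of the tested genes, and in 1 of the 11 genes called higher (9.09%), FUS5. These are matches of letters, and no binding was measured.

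Libraries held 9075387 to 12493977 reads, of which 2572364 to 4348395 came from nuclear genes, and the 55 genes took 0.2226 to 0.3171% of the nuclear reads. Total reads per gene over the 12 libraries ran from 2 to 7317, with a median of 1842. Values in CPM are counts scaled to the TMM-adjusted library total (CPM as edgeR defines it), log2 fold changes are given ± SE, and means ± SD have n = 3. The libraries were put into classes by the share of reads from the chloroplast transcript psbA, with a cut at 28% set after seeing the data. Below it, 5 of them (WT control 1 and 2, atcyp18-2 control 1, WT heat 3 and atcyp18-2 heat 2) had 21.96 to 26.74%. The other 7 had 28.73 to 38.65%, so no wide gap in the share marks the cut. The class cuts across groups, so within a group it adds to the spread. AT2G36130, the mutated gene, stood at 6.29, 6.02 and 5.6 CPM in WT controls and at 1.05, 0.951 and 1.04 CPM in atcyp18-2 controls, and at 7.48, 7.36 and 5.52 CPM against 2.14, 4.13 and 2.83 CPM after heat. The mutant was lower in both conditions without overlap. HSP101, the heat-inducible disaggregase, changed by 10.08 on the log2 scale in WT and by 9.99 in the mutant, so the heated libraries match their labels. Summed mesophyll markers (Rubisco, its activase and a light-harvesting protein) stood at 9810 to 17406 CPM in all groups, summed guard cell markers at 3.47 to 6.47 CPM, and the flower and seed markers at 0.181 to 0.825 CPM. The root markers, which PYK10 dominates, summed to 20.9 to 54.3 CPM in controls and 9.49 to 21.2 CPM after heat, and the part of this in the results was not tested.

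After 1 h at 47 °C a few proteasome genes of WT leaves rose, and most did not pass the test. Of the 52 genes with enough reads for the test, 5 were called higher and 0 lower at an adjusted p below 0.05 (edgeR quasi-likelihood test, adjusted over 16636 genes), where 13.2% of all tested genes were called higher and 10.3% lower. The 5 were FUS5, PBC2, EER5, RPN13 and RPT3. In atcyp18-2, 11 genes were called higher and 2 lower, against 16.9% and 15.3% of all genes (32.2% in either direction, and 23.5% in WT). The higher ones were the same 5 with AT3G53970, AT5G45620, AT1G53780, RPN1B, AT1G04810 and RPT5A, and the lower ones were PAF2 and AT4G19006. The median log2 fold change over the 52 genes was 0.18 in WT and 0.20 in the mutant, beside -0.02 and -0.01 over all tested genes, and 37 of the 52 had a positive value in each genotype. When libraries were scaled by their totals alone, the median of all genes moved to -0.77 in WT and -0.76 in the mutant and that of the 52 genes to -0.59 and -0.54, so a rise here is a rise relative to the middle of all genes. The difference between these shares and those of all genes was not tested. The count of genes whose 3 heated samples all lay above the 3 controls was 14 in WT and 17 in the mutant, where 19% and 22.5% of all genes did so, and 2 and 7 lay wholly below, where 18.4% and 22.3% of all genes did so. In bulk leaf RNA, fewer cells of a type and less RNA per cell cannot be told apart.

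**Figure D1:**
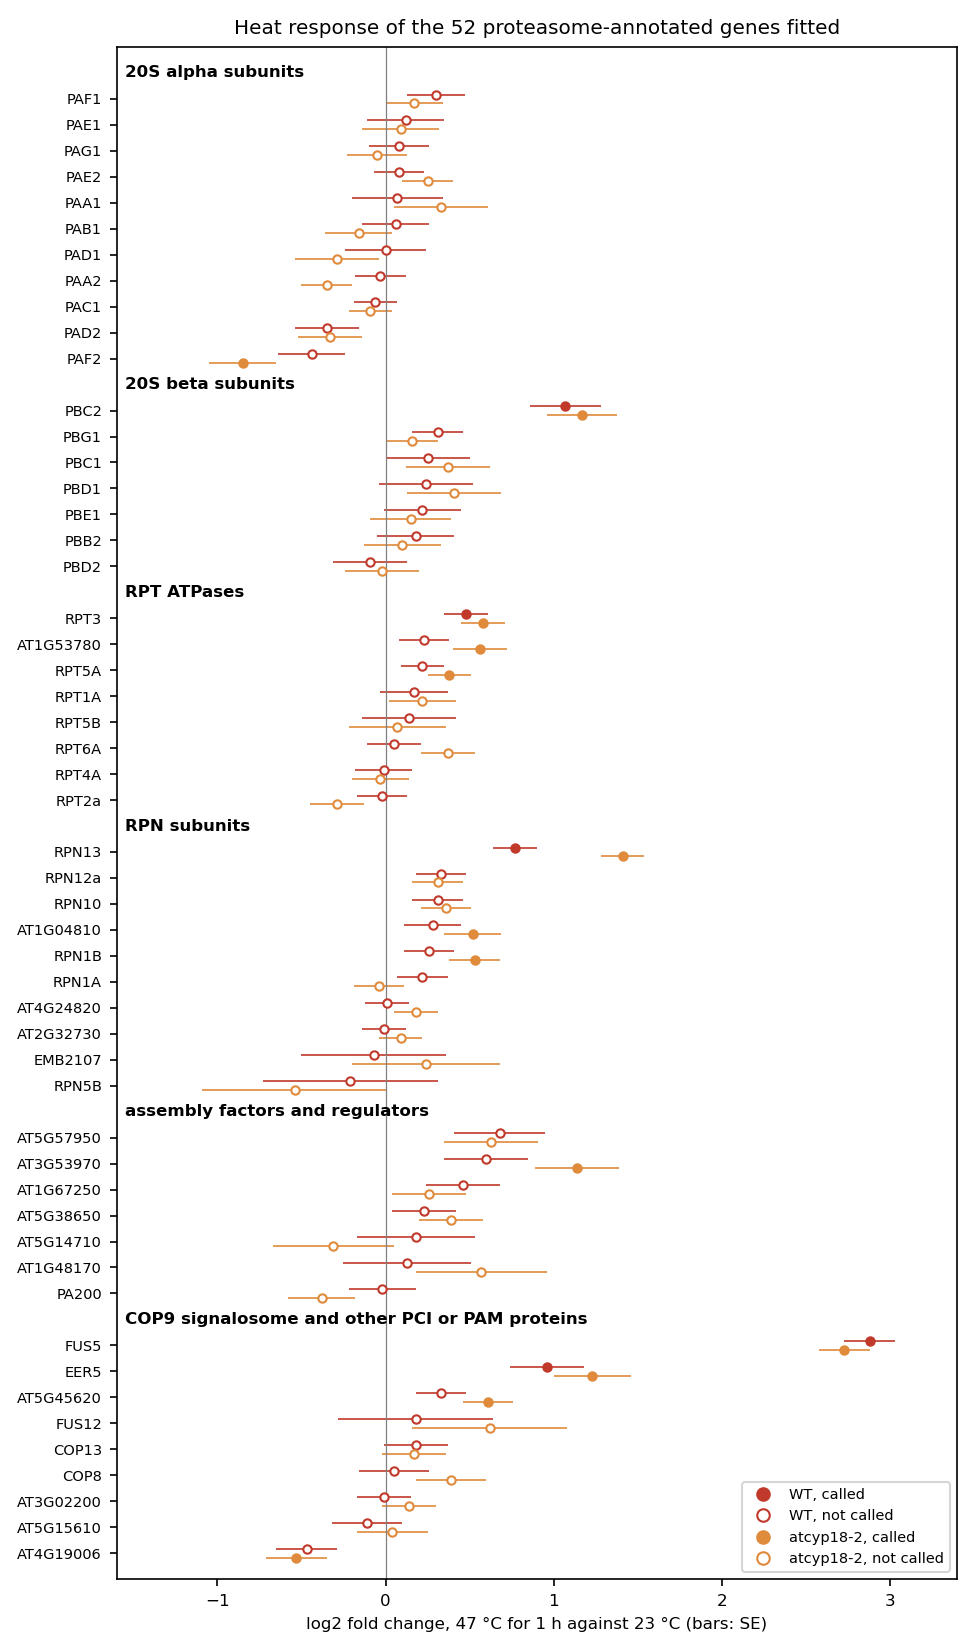
Log2 fold change after 1 h at 47 °C (± SE) of the 52 tested genes by class, in WT (red) and atcyp18-2 (orange); filled points were called. Most points lie near 0, and FUS5 stands apart at 2.88 and 2.73.

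By class, with TMM scaling, calls were spread thinly. Among the 11 alpha subunits, 0 were called in WT and 1 fell in the mutant, with medians of 0.06 and -0.09. Among the 7 beta subunits, 1 rose in each genotype, with medians of 0.24 and 0.16. Of the 8 RPT ATPases, 1 rose in WT and 3 in the mutant, with medians of 0.16 and 0.29. Of the 10 tested RPN subunits, 1 and 3 rose, with medians of 0.24 and 0.28. Of the 7 tested assembly factors and regulators, 0 and 1 rose, with medians of 0.23 and 0.39. Of the 9 COP9 and PCI genes, 2 rose in WT, and 3 rose and 1 fell in the mutant, with medians of 0.18 and 0.39. These 9 include AT5G45620, which rose in the mutant, and AT4G19006, which fell, both from the fixed list of RPN subunits. No class was tested as a whole.

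Among the core subunits, PBC2 (AT1G77440, chr1:29096020-29098494, plus strand) changed most. It encodes a beta3-type subunit, which has no active site of its own. Its level was 7.37, 7.11 and 7.82 CPM in WT controls and 17.4, 17.4 and 12.2 CPM in heated WT leaves, and 6.69, 10.3 and 10.1 CPM in atcyp18-2 controls and 22.2, 16.3 and 22.6 CPM in heated mutant leaves. Every heated sample lay above every control. The log2 fold change was 1.07 ± 0.21 in WT (edgeR adjusted p = 0.00306) and 1.17 ± 0.21 in the mutant (adjusted p = 0.00111). With library totals alone both calls were lost, at 0.29 (edgeR adjusted p = 0.16) and 0.41 (adjusted p = 0.0539). PBC1, the other gene for this subunit, stood at 10.6, 8.13 and 12.7 CPM in WT controls and 16.3, 11.9 and 9.37 CPM after heat. In the mutant it stood at 7.9, 13 and 11.7 CPM and at 12.3, 13 and 16.8 CPM. The PBC1 groups overlapped, and its log2 fold changes of 0.25 and 0.37 did not pass the test (edgeR adjusted p = 0.516 and 0.298).

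PAF2 (AT1G47250), one of the genes for the alpha6-type subunit, was the only gene called lower among the 11 alpha and 7 beta subunits, and only in the mutant. Its level was 7.23, 6.2 and 7.38 CPM in WT controls and 5.08, 5.25 and 5.02 CPM after heat. In atcyp18-2 it was 8.35, 6.93 and 9.82 CPM without heat and 4.28, 5.54 and 3.93 CPM after heat. The heated samples lay below the controls in both genotypes. The log2 fold change was -0.44 ± 0.20 in WT (edgeR adjusted p = 0.126) and -0.85 ± 0.20 in the mutant (adjusted p = 0.00565), which library totals alone moved to -1.59. PAF2 overlaps GAMMA CA2 (AT1G47260) on the opposite strand over 1652 bases, and since no use of strand in counting is stated, reads of the 2 genes cannot be told apart there. GAMMA CA2 had a mean of 31.5 CPM and log2 fold changes of 0.25 and 0.28. PAF1, the other alpha6 gene, stood at 16.2, 18.2 and 16.6 CPM in WT controls and 25.8, 19.2 and 17.8 CPM after heat. In the mutant PAF1 stood at 17.5, 20.8 and 20 CPM and at 19.7, 25.7 and 19.9 CPM, and its groups overlapped in both genotypes.

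The other core subunits did not pass the test. PAC1, an alpha3 subunit with the highest level per length of all 55 genes (mean 22.1 CPM per kb of transcript), stood at 27.9, 28 and 23.5 CPM in WT controls and 27.3, 23.7 and 25.3 CPM after heat. In the mutant PAC1 stood at 30.1, 28.8 and 28.7 CPM and at 25.8, 29 and 27.5 CPM, and the heated and control ranges overlapped in both genotypes. PBE1, a gene for the beta5 subunit that carries the chymotrypsin-like activity, stood at 17.8, 17.9 and 26.8 CPM in WT controls and 29.9, 25.8 and 17.5 CPM after heat. In the mutant PBE1 stood at 16.7, 26 and 23.6 CPM and at 25, 21.9 and 26.5 CPM, so its groups overlapped widely, and its log2 fold changes were 0.22 and 0.15.

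Among the ATPases, RPT3 (AT5G58290, chr5:23569052-23571854, plus strand) rose in both genotypes. Its level was 23.5, 23.5 and 24.1 CPM in WT controls and 36.6, 32.3 and 30.4 CPM after heat, and 23.2, 22.3 and 19.8 CPM in mutant controls and 33.7, 30.2 and 33.8 CPM after heat. Controls and heated samples did not overlap. The log2 fold change was 0.48 ± 0.13 in WT (edgeR adjusted p = 0.018) and 0.58 ± 0.13 in the mutant (adjusted p = 0.00481). In WT the call was lost without WT control 1 (edgeR adjusted p = 0.0508), WT control 2 (adjusted p = 0.0575) or WT heat 1 (0.39, adjusted p = 0.0841). With library totals alone its values turned to -0.29 and -0.19.

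AT1G53780, annotated as an ATPase of the regulatory complex, stood at 13.6, 13.4 and 15 CPM in WT controls and 15.4, 16.7 and 17.1 CPM after heat, and at 13.8, 11.3 and 9.99 CPM and 16, 18.9 and 17.1 CPM in the mutant. Heated samples lay above controls in both genotypes, and the mutant difference of 0.56 ± 0.16 passed the test (edgeR adjusted p = 0.0146) while that of 0.23 in WT did not (adjusted p = 0.314). The mutant call was lost without atcyp18-2 control 2 (edgeR adjusted p = 0.0524), atcyp18-2 control 3 (adjusted p = 0.0628) or atcyp18-2 heat 2 (adjusted p = 0.0515), and the value was -0.20 with library totals alone. Its closest relative in sequence, RPT1A, had the highest level of the ATPases, 36.5, 34.9 and 22 CPM in WT controls and 29.7, 34.4 and 41.2 CPM after heat. In the mutant RPT1A stood at 35.1, 30.8 and 29.8 CPM and at 36.5, 43.1 and 31.7 CPM, so its groups overlapped. RPT5A had a difference of 0.38 ± 0.13 in the mutant (edgeR adjusted p = 0.0417), a call that was lost without any single library other than WT heat 3 or atcyp18-2 control 2 (adjusted p = 0.0565 to 0.162), and its value was -0.35 with library totals alone.

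RPN13 (AT2G26590, chr2:11310957-11315524, minus strand), a ubiquitin receptor of the regulatory particle, rose in both genotypes. Its level was 11.1, 10.8 and 10.8 CPM in WT controls and 18, 17.7 and 20.1 CPM after heat, and 12, 11.1 and 10.9 CPM in mutant controls and 32.4, 29.6 and 28.4 CPM after heat. Replicates were tight, every heated sample lay above every control, and every heated mutant sample lay above every heated WT sample. RPN13 rose 1.71-fold in WT (0.77 ± 0.13 on the log2 scale, edgeR adjusted p = 0.000936) and 2.67-fold in the mutant (1.41 ± 0.13, adjusted p = 3.78e-06). With library totals alone the values were 0.03 (edgeR adjusted p = 0.922) and 0.65 (adjusted p = 0.0426), so the WT call was lost.

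**Figure D2:**
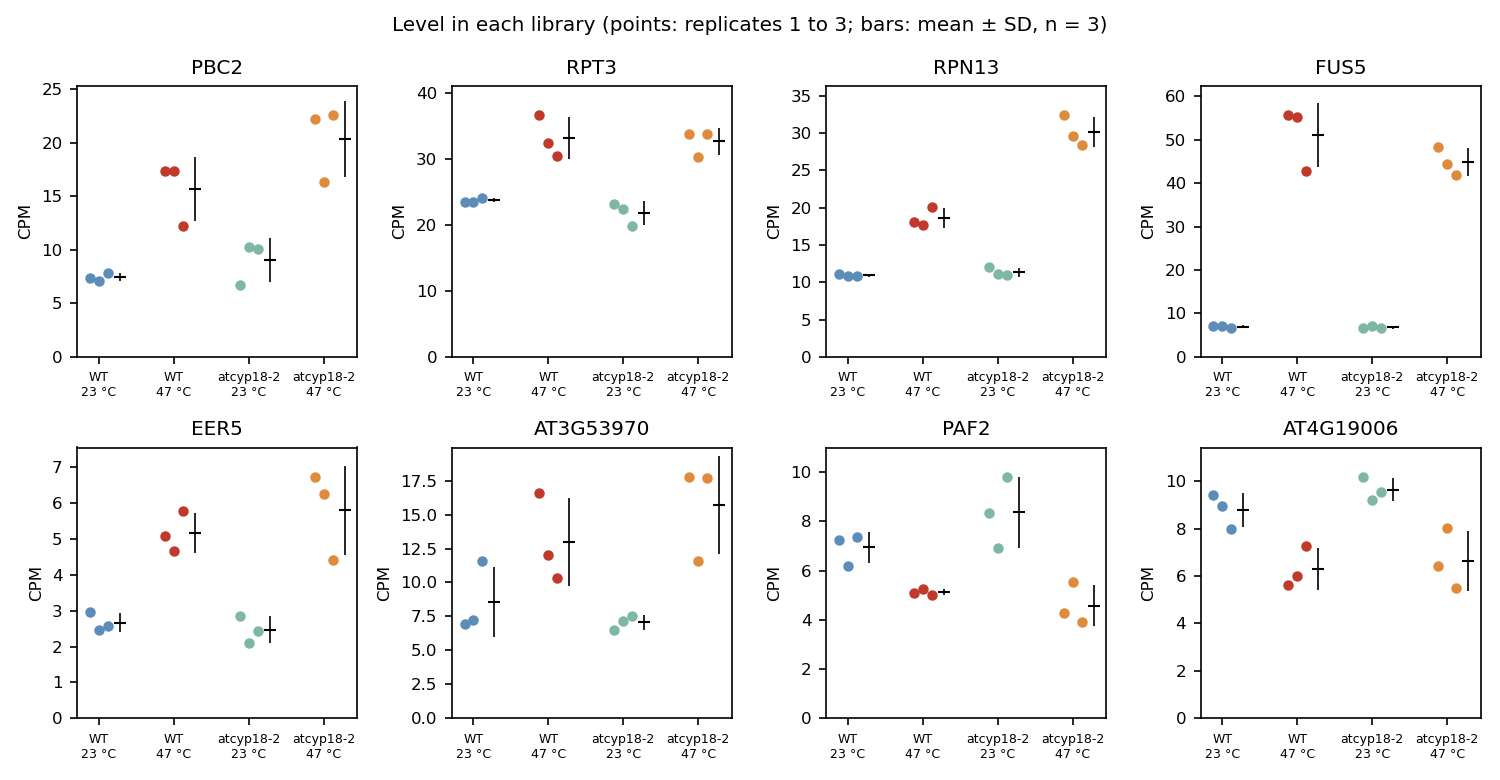
CPM in each of the 12 libraries (points) with the mean ± SD of each group (n = 3) for 8 genes. RPN13 stands at 28.4 to 32.4 CPM in heated mutant leaves against 17.7 to 20.1 CPM in heated WT leaves, and FUS5 has means of 6.93 CPM and 51.2 CPM in WT control and heat and of 6.76 CPM and 44.9 CPM in the mutant.

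The scaffold subunit RPN1 is encoded by RPN1A and RPN1B. RPN1A, with the most reads of all 55 genes, stood at 50, 54 and 54.9 CPM in WT controls and 66.8, 65.7 and 53.1 CPM after heat, and at 52.6, 62.5 and 61.2 CPM and 56.7, 48.9 and 65.5 CPM in the mutant. Its groups overlapped, with log2 fold changes of 0.22 and -0.04. RPN1B stood at 20.4, 20.7 and 19.1 CPM in WT controls and 24.3, 25.4 and 22.6 CPM after heat, and at 20.3, 21 and 15.6 CPM and 26, 29.9 and 26.4 CPM in the mutant. Heated samples lay above controls in both genotypes, and the mutant difference passed the test (0.53 ± 0.15, edgeR adjusted p = 0.0144) while the WT one did not (0.26, adjusted p = 0.221). The mutant call was lost without atcyp18-2 control 3 (edgeR adjusted p = 0.0625) or atcyp18-2 heat 2 (adjusted p = 0.0511), and the value was -0.22 with library totals alone. AT1G04810 is one of the genes described as Rpn2, the other large scaffold. It stood at 19.7, 21.1 and 22.5 CPM in WT controls and 27.8, 26.4 and 22.6 CPM after heat, without overlap. That WT difference of 0.28 did not pass the test (edgeR adjusted p = 0.27). In the mutant it stood at 18.1, 25.4 and 17.7 CPM and at 31.6, 25.1 and 31.1 CPM. These groups overlapped, and the mutant difference of 0.52 ± 0.17 passed the test (edgeR adjusted p = 0.0353). That call was kept only without WT control 3, WT heat 3, atcyp18-2 control 2 or atcyp18-2 heat 2, and was lost without each of the other 8 libraries (adjusted p = 0.0509 to 0.131), and the value was -0.25 with library totals alone. RPN1B, AT1G04810 and RPT5A are named because they complete the list of called genes, after their values were seen.

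Among assembly factors and regulators, AT3G53970, described as similar to a proteasome inhibitor, rose in the mutant. Its level was 6.96, 7.23 and 11.6 CPM in WT controls and 16.6, 12 and 10.3 CPM after heat, and 6.47, 7.2 and 7.56 CPM and 17.8, 11.6 and 17.7 CPM in the mutant. The groups overlapped in WT and were apart in the mutant, where the log2 fold change was 1.14 ± 0.25 (edgeR adjusted p = 0.00415) against 0.60 in WT (adjusted p = 0.105). The mutant call was lost with library totals alone, at 0.36 (edgeR adjusted p = 0.0978). PA200, an activator that can cap the core in place of the regulatory particle, stood at 30.4, 26.5 and 34 CPM in WT controls and 33.7, 32.7 and 23.3 CPM after heat. In the mutant PA200 stood at 30.7, 37.8 and 34.5 CPM without heat and at 29.3, 19.7 and 30.2 CPM after heat, lower without overlap, and its difference of -0.38 did not pass the test (edgeR adjusted p = 0.157).

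FUS5 (AT1G02090, chr1:387277-389808, minus strand), which encodes subunit 7 of the COP9 signalosome, had the largest response of the 52 tested genes. Its level was 7.1, 7.11 and 6.58 CPM in WT controls and 55.7, 55.2 and 42.7 CPM after heat, and 6.54, 7.13 and 6.6 CPM in mutant controls and 48.4, 44.4 and 41.9 CPM after heat. The heated and control ranges were far apart in both genotypes. FUS5 rose 7.37-fold in WT (2.88 ± 0.15, edgeR adjusted p = 2e-08) and 6.63-fold in the mutant (2.73 ± 0.15, adjusted p = 2.99e-08). The rows of its other annotated transcripts, AT1G02090.1 and AT1G02090.2, each held 92.4% of the reads of the transcript used, so nearly all reads lie in sequence that the transcripts share. The neighbour SBI1 (AT1G02100) lies head to head with FUS5, 3 bases away, and rose with log2 fold changes of 1.06 and 1.07. The other COP9 genes of the set, COP13, COP8 and FUS12, had 0 calls, and of the 6 COP9 genes described without the word proteasome, 0 were called in either genotype (-0.53 to 0.19 in WT and -0.16 to 0.92 in the mutant).

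EER5, a PCI domain protein first described in ethylene responses, also named AtTHP1, stood at 2.97, 2.47 and 2.58 CPM in WT controls and 5.08, 4.65 and 5.77 CPM after heat, and at 2.86, 2.1 and 2.43 CPM and 6.74, 6.25 and 4.4 CPM in the mutant. The groups were apart in both genotypes, with log2 fold changes of 0.96 ± 0.22 (edgeR adjusted p = 0.00745) and 1.23 ± 0.23 (adjusted p = 0.00114), from only 459 reads in all. Its WT value was 0.91 (edgeR adjusted p = 0.0728) in the libraries with a high psbA share alone, and both calls were lost with library totals alone, at 0.22 (adjusted p = 0.581) and 0.48 (adjusted p = 0.25). The similar PCI domain genes AT5G45620 and AT4G19006, both in the fixed list of RPN subunits, went opposite ways in the mutant. AT5G45620 stood at 13.8, 14.2 and 13.2 CPM in WT controls and 15.8, 16.8 and 19.1 CPM after heat, and at 14, 12.1 and 11.9 CPM and 19.6, 21.8 and 16.3 CPM in the mutant, where it rose by 0.61 ± 0.15 (edgeR adjusted p = 0.00896), a value of -0.14 with library totals alone. AT4G19006 stood at 9.4, 8.97 and 8 CPM in WT controls and 5.61, 6 and 7.28 CPM after heat, and at 10.2, 9.23 and 9.56 CPM and 6.42, 8.02 and 5.5 CPM in the mutant, where it fell by 0.53 ± 0.18 (edgeR adjusted p = 0.0422). Both genes were without overlap between control and heat in both genotypes, while the WT values of 0.33 and -0.47 missed the threshold (edgeR adjusted p = 0.138 and 0.0783). The AT4G19006 call was kept without WT control 3, WT heat 1, WT heat 3 or atcyp18-2 heat 2 and was lost without each of the other 8 libraries (adjusted p = 0.0504 to 0.141). AT3G02200, the PCI domain gene with the highest level, stood at 30, 33.2 and 30.2 CPM in WT controls and 31, 30 and 31.8 CPM after heat, and at 30.9, 27.4 and 29.5 CPM and 26.2, 40.1 and 30.6 CPM in the mutant, with overlap throughout.

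Within pairs of similar genes, the share of the pair's reads was apart between control and heated samples of both genotypes in 4 of the 15 pairs with both genes in the set, and in 7 of all 27 pairs. The 4 were chosen for description after their values were seen. No such share was taken over other gene pairs, so these counts have no background beside them. The 15 pairs include RPN12a with RPN12b and RPN1A with AT4G08140, whose rarer genes had 22 and 2 reads in all. RPN1A with RPN1B is not among the pairs, since each gene was paired only with its closest relative in coding sequence. PBC2 held 41.8 ± 4.39% of the reads of PBC1 and PBC2 in WT controls and 55.9 ± 4.04% after heat, and 45.4 ± 1.01% and 59.2 ± 4.62% in the mutant. The ranges of control and heated samples were apart, and PBC2 passed PBC1 in every heated sample (51.6 to 64.4%). PAF2 held 28.9 ± 3.15% of the PAF pair in WT controls and 19.7 ± 3.07% after heat, and 24.8 to 32.8% and 16.0 to 17.5% in the mutant. AT4G19006 held 38.9 ± 1.40% of its pair with AT5G45620 in WT controls and 26.5 ± 0.867% after heat, and 42 to 44.5% and 24.4 to 26.7% in the mutant. AT1G04810 held 27.5 ± 0.276% of its pair with AT2G32730 in WT controls and 31.6 ± 1.27% after heat, and 25 to 29.4% and 30.7 to 34.5% in the mutant. By contrast the share of PAE1 in the PAE pair and of RPT5B in the RPT5 pair overlapped between control and heat in WT. These shares were not tested, and pairs were 80.3 to 95.4% identical in coding sequence, with stretches of 35 shared bases in the PBC pair and 47 in the PAF pair. How reads that match both genes were counted is not given in the sources used here. AT5G20000, outside the set, shares a run of 104 bases with RPT6A, and their values are the least certain in this respect.

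**Figure D3:**
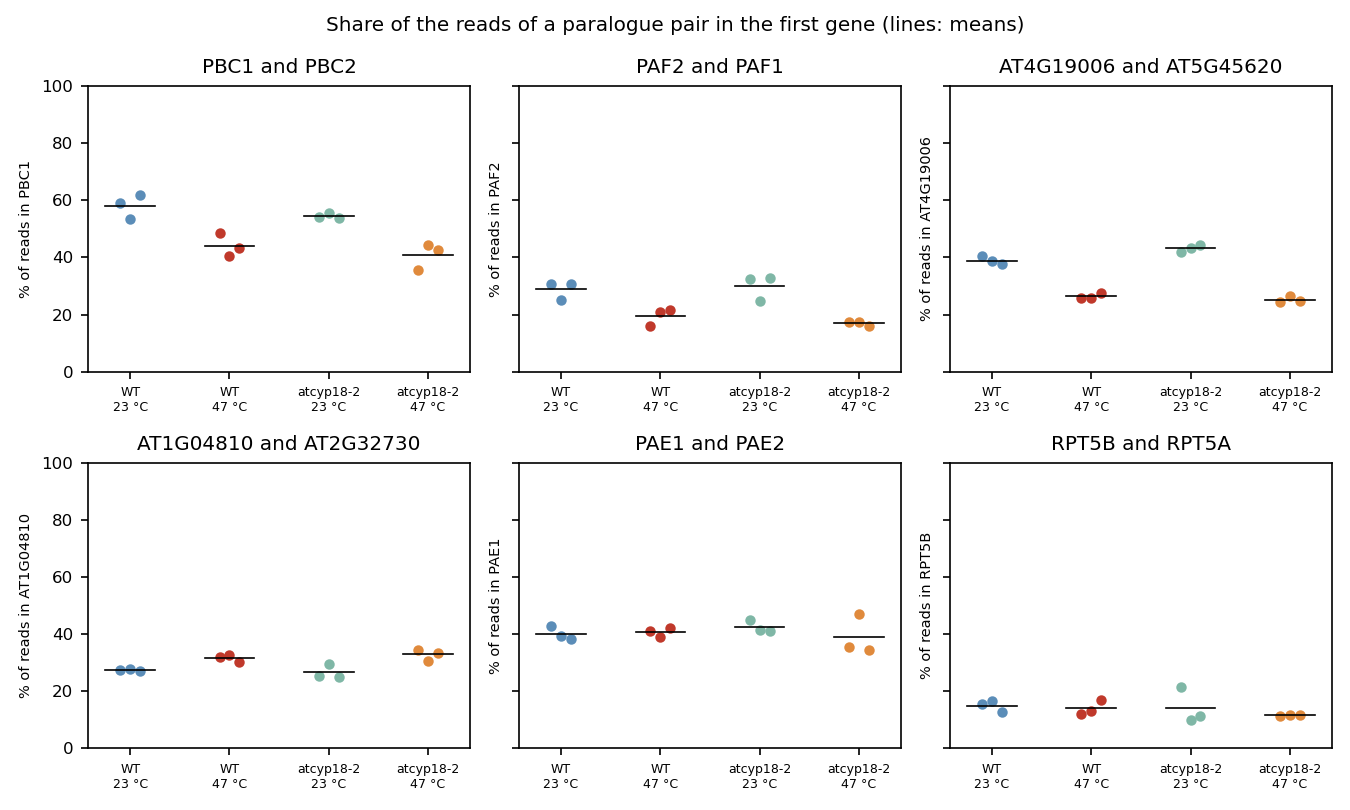
Share (% of the pair's reads) held by the first-named gene in each library of 6 gene pairs, by group; the 4 pairs whose shares were apart in both genotypes are among them. The shares of AT4G19006 and PAF2 drop after heat in both genotypes, from at least 37.7% to at most 27.5% for AT4G19006, while those of PAE1 and RPT5B overlap between WT control and heat.

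Between mutant and WT controls no gene of the set passed the test. Without heat, edgeR called 0 members higher and 0 lower, where 0.018% and 0.00601% of all genes were called (0.024% in all), and 0 had an unadjusted p below 0.05. Their log2 differences ran from -0.28 to 0.32, and 2 genes lay wholly higher and 2 wholly lower in the mutant, where 3.67% and 3.01% of all genes did. After heat, edgeR called 0 higher and 0 lower, where 0.162% and 0.0601% of all genes were called (0.222% in all), and 1 member, RPN13, had an unadjusted p below 0.05. RPN13, AT4G24820 and RPN1B lay wholly higher in the mutant and PAA2 wholly lower, that is 3 and 1 genes, where 8% and 6.85% of all genes did. RPN13 was higher in the mutant by 0.69 ± 0.13, and its adjusted p of 0.0564 missed the threshold. DESeq2 gave an adjusted p of 0.00106 for the same difference, and edgeR with the share of psbA as a covariate gave 0.000951. These settings also called more of all genes higher there, 0.842% and 3.74%. With 1 library left out, the edgeR adjusted p for RPN13 ran from 0.0666 to 0.309 over the 12 fits, so it missed the threshold in each. Over the other alternatives for this value the adjusted p ran from 0.000471 to 0.529. The difference of the RPN13 heat response between genotypes was 0.64 ± 0.18 with an adjusted p of 0.707 (edgeR), and 0% of all genes were called in that comparison, in which 912 of 16636 genes had an unadjusted p below 0.05 and DESeq2 called 15 higher and 15 lower. In that comparison 0 members were called by edgeR or by DESeq2. Each heat comparison shares a group of samples with each genotype comparison, so their values are set side by side and not correlated.

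In the authors' deposited tables of changed genes the smallest absolute log2 fold change is 1.00 to 1.46. Their largest adjusted p, from the authors' own test, is 0.00547 to 0.00998, where calls here needed one below 0.05. For heat in WT they list FUS5, with a log2 fold change of 2.86. For heat in the mutant the authors' deposited table lists FUS5 with 2.70, RPN13 with 1.40 and PBC2 with 1.17. The authors' deposited tables for the genotype comparisons hold 7 and 4 rows, of which 0 are members.

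The levels of some genes, in the set and outside it, were separated by the class of psbA share. Across all 12 libraries, 5 of the 52 tested members were higher in each of the 5 libraries with a low psbA share than in any of the other 7, and 2 were lower, where 6.07% and 6.08% of all tested genes were. Counts this small do not set the members apart from all genes, and the difference was not tested. EMB2107, described as RPN5, a scaffold of the lid, stood at 21.9 to 30.3 CPM in those 5 libraries and at 11 to 14.6 CPM in the others. RPN5B, its relative, stood at 5.48 to 6.47 CPM against 1.15 to 3.94 CPM, and FUS12, a COP9 subunit, at 13 to 23.7 CPM against 5.24 to 11.3 CPM. PAG1 (21.3 to 25.3 against 16 to 21 CPM) and RPT5B (4.39 to 6.24 against 3.04 to 4.35 CPM) were also higher. PBE1 (16.7 to 21.9 against 23.6 to 29.9 CPM) and RPN1A (48.9 to 54 against 54.9 to 66.8 CPM) were lower. For these genes the groups in the heat comparisons therefore mix libraries of both classes. What sets the class was not tested. With the class as a factor, an alternative chosen after seeing the data, edgeR called 12 members higher and 2 lower in WT, beside 21.7% and 20.4% of all genes, and 20 higher and 5 lower in the mutant, beside 26.2% and 25% of all genes. In the 7 libraries with a high share alone it called 7 higher and 0 lower in WT, beside 13.4% and 9.95% of all genes, and 13 higher and 3 lower in the mutant, beside 20.7% and 18.2%. There the WT controls are 1 library, which is assumed to vary like the other groups.

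**Figure D4:**
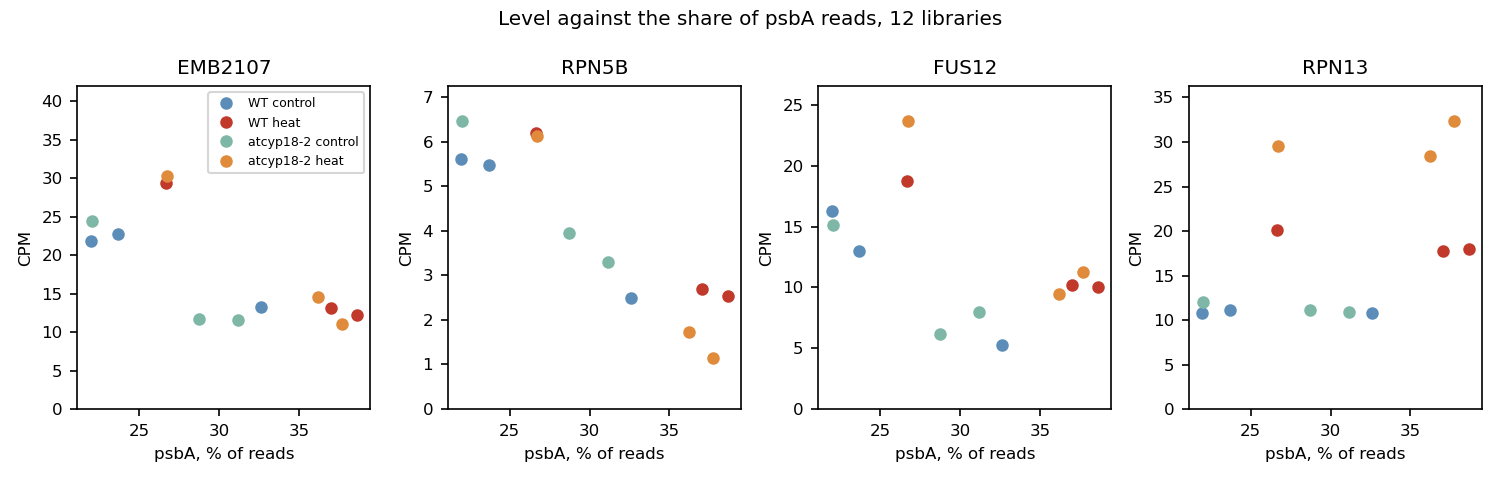
CPM of 4 genes against the share of psbA in each library (% of reads), coloured by group. EMB2107, RPN5B and FUS12 are high in the 5 libraries below 28% in every group, and RPN13 is higher in every heated library than in any control.

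Beyond the 55 genes, subunits of the fixed lists whose description lacks the 2 terms numbered 17, of which 16 were tested. ATS9, a non-ATPase subunit of the lid, rose from 22.9, 21.9 and 25.6 CPM to 77.1, 82.9 and 73.4 CPM in WT, and from 20.5, 28 and 30.2 CPM to 108, 106 and 98.8 CPM in the mutant (1.73 and 1.99 on the log2 scale). AT1G75990 fell from 8.72, 7.95 and 8.53 CPM to 5.08, 3.45 and 4.52 CPM in WT and changed alike in the mutant (-0.94 and -0.98). The beta subunits PBF1 (0.53 and 0.41) and PBB1 (0.53, and 0.22 without a call in the mutant) were the other calls.

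Genes of the other steps of the pathway are described by list. Of all tested genes, heat gave 13.2% called higher and 10.3% lower in WT, and 16.9% and 15.3% in the mutant. No list was tested as a whole against these shares. Both NAC factors of the fixed list rose in both genotypes: NAC2 (AT5G04410) by 2.01 and 2.15 and NAC053 by 0.93 and 1.46 on the log2 scale. Proteins of this family are known to activate proteasome genes under proteasome stress. All 3 genes of CDC48, the ATPase that extracts ubiquitylated proteins, rose in both genotypes. AtCDC48B rose from 2.5, 1.51 and 1.42 CPM to 76.4, 77.8 and 54.6 CPM in WT, and from 2.03, 2.17 and 1.91 CPM to 117, 108 and 97.8 CPM in the mutant. AtCDC48C was higher in the mutant than in WT after heat by 0.81 (edgeR adjusted p = 0.0316), with 77.8, 86 and 75.5 CPM against 38.2, 48.2 and 50.2 CPM. Of the 9 polyubiquitin and ubiquitin fusion genes, 4 rose in both genotypes (UBQ14 by 3.01 and 2.81, UBQ10 by 2.47 and 2.64, UBQ3 by 1.93 and 1.92, UBQ11 by 1.5 and 1.53). The ubiquitin-activating enzymes had 0 calls in WT and UBA2 fell by 0.53 in the mutant. Of 7 shuttle factors, which carry ubiquitylated proteins to RPN subunits, 4 rose in both genotypes, with AT2G17190 at 0.83 and 0.69 and RAD23C at 0.56 and 0.70. Of 3 proteasome-bound deubiquitinases, 0 were called in WT and 1, UBP6, in the mutant (0.91). Of the 10 ATG8 and NBR1 genes of autophagy, the other route of protein clearance, 7 rose in each genotype, led by ATG8E (3.15 and 3.13) and ATG8H (2.51 and 3.01). The guard cell and root markers moved with heat: KAT1 by -0.89 in WT and PYK10 by -1.44 and -1.04. Their part in these values was not tested.

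**Figure D5:**
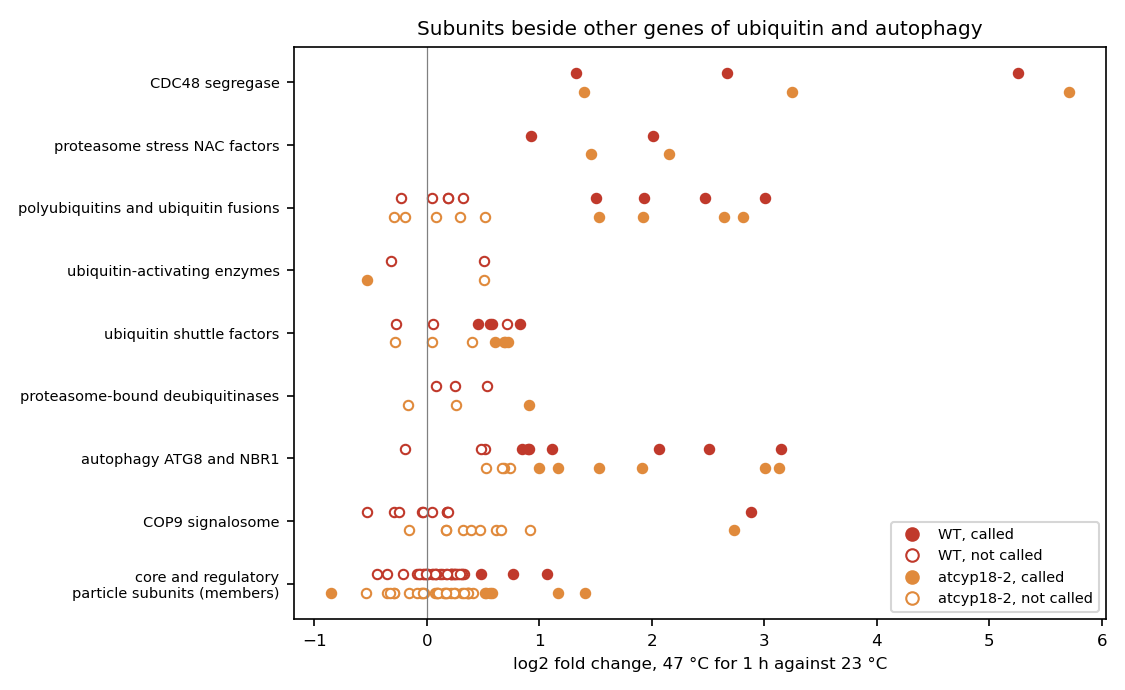
Log2 fold change after heat of the genes of each fixed list, with the core and regulatory particle subunits for comparison, in WT (red) and atcyp18-2 (orange); filled points were called, and the COP9 list includes the 4 COP9 genes of the set. The CDC48 genes, polyubiquitin genes and ATG8 genes reach values above 2, whereas nearly all subunits of the set lie within 1 of 0. Subunits of the fixed lists outside the set, among them ATS9 (1.73 in WT and 1.99 in the mutant), are not drawn.

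The least abundant genes were not tested. AT1G62920, described as a proteasome maturation factor, had 85 reads in all 12 libraries, RPN12b had 22 and AT4G08140, described as similar to a non-ATPase subunit, had 2. Per kb of transcript the 55 genes ran from 22.1 CPM (PAC1), 18.9 CPM (AT3G02200), 18.7 CPM (RPN1A), 18.2 CPM (PAG1) and 17 CPM (RPT1A) down to 2.18 CPM (AT5G57950), 2.11 CPM (AT5G14710), 0.945 CPM (AT1G62920), 0.483 CPM (AT4G08140) and 0.295 CPM (RPN12b). Of the 55 genes, 16 lie on chromosome 1, 7 on chromosome 2, 8 on chromosome 3, 7 on chromosome 4 and 17 on chromosome 5, so the set is not a cluster. Another annotated gene overlaps 18 of them, and another lies within 250 bases of 40. RPN5B overlaps ABR1, PBG1 overlaps TPR5 and RPT1A overlaps SRF6, which rose with heat in WT, and their reads cannot be told apart there.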

How the data were processed

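Counts come from the series table of the authors, whose deposited values are raw whole-number counts per transcript, per the file headers. The submitters' processing notes name HTSeq and DESeq without version or role, and the header names Phytozome as the annotation source. No source used here gives the aligner, the genome build, the annotation release or the use of strand. The lowest deposited value is 1, so 1 read appears to have been added to each of the 51792 rows, and this read is taken off where reads are printed. CPM values include it. The 12 columns of the authors' normalized values were not used. The authors' deposited lists of changed genes hold log2 fold changes and adjusted p-values, used for description only.

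The 91 rows matching the description rule gave 55 genes. For each gene the annotated transcript with the largest total was taken, since reads fitting several transcripts appear to be counted for each. The design had assumed counts per gene and was kept. All 23174 genes entered 1 fit of 12 libraries with edgeR 4.0.16 in R 4.3.3 (TMM, filterByExpr, quasi-likelihood, 16636 genes fitted, 8 residual degrees of freedom, common biological coefficient of variation 0.231). Calls in each of 5 contrasts needed a p, adjusted by Benjamini-Hochberg over the genes fitted, below 0.05. An SE is the log2 fold change over the root of F. No pair of replicates agreed within sampling noise (lowest chi-square per degree of freedom 2.69), so each counts as 1 sample. Members and lists were chosen with earlier results of these data known. Genes named with all values are the 10 called with the largest change in each heat comparison, any called between genotypes, their paralogues, and the highest of each class. DESeq2 1.42.0 and other settings were alternatives. The scripts were tested on simulated data. Sequences, coordinates and lengths are from RefSeq on TAIR10.1, in which 99.1% of annotated transcripts and all 55 genes matched, and pairs were aligned with Biopython 1.88. The reference held no protein table, so proteins are not shown.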

Additional observations from a re-analysis of the deposited data

How the results depend on the processing

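For heat in WT, the 5 genes called higher became 1 with library totals alone, 14 with the psbA share as a covariate, 2 with a log2 fold change of at least 1 and 12 with the class of psbA share as a factor, and the 0 called lower became 17, 2, 0 and 2 under these settings. For heat in atcyp18-2, the 11 called higher became 2 with library totals alone, 6 with no filter on low counts, 7 with only the compared groups in the fit, 19 with the psbA covariate, 5 with a log2 fold change of at least 1 and 20 with the class factor. The 2 called lower became 15 with library totals alone, 1 with the compared groups only, 0 with a log2 fold change of at least 1, 1 with DESeq2 and 5 with the class factor. In the mutant against WT after heat, RPN13 became the 1 member called higher with the psbA covariate, with DESeq2 and with the class factor. All genes moved with these settings. In WT, 13.2% were called higher and 10.3% lower, against 4.8% and 45.1% with library totals alone and 20.2% and 18.9% with the psbA covariate. In the mutant, 16.9% and 15.3% became 6.07% and 44.5%, and 25% and 24.4%. With a log2 fold change of at least 1, 8.62% and 6.11% were called in WT and 10.6% and 9.67% in the mutant. The class factor gave 21.7% and 20.4% in WT and 26.2% and 25% in the mutant. In the mutant, no filter gave 9.42% and 12.3%, the compared groups only 15.5% and 15.6%, and DESeq2 17.2% and 14.6%. After heat, 3.74% of all genes were called higher between genotypes with the psbA covariate, 0.842% with DESeq2 and 4.32% with the class factor. The main fit called 0.162% higher. Library totals alone reversed RPT3 in WT (-0.29) and, in the mutant, RPT3 (-0.19), AT1G04810 (-0.25), AT1G53780 (-0.20), RPT5A (-0.35), RPN1B (-0.22) and AT5G45620 (-0.14). The cause was not tested. Leaving out 1 library gave 4 to 6 higher in WT, and 7 to 11 higher and 1 to 3 lower in the mutant. Of all genes, 9.54 to 13.5% were then higher in WT, and 13.4 to 17.3% higher and 11.3 to 16.5% lower in the mutant. With the replicate block, 5 were higher and 0 lower in WT and 9 higher and 1 lower in the mutant. Beside these stood 10.9% and 7.37% of all genes in WT and 14.4% and 12.6% in the mutant. The labels do not say that the numbers pair samples. Correlations of same-numbered samples, taken on deviations from the group means, ran from -0.61 to 0.48. The class of psbA share falls on different numbers in different groups, so these correlations cannot decide whether samples are paired. The class of psbA share was added after seeing the data. Depth limits the genes with few reads: AT1G62920, RPN12b and AT4G08140 could not be tested, and EER5 rests on 459 reads.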

Other observations

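Summed over the 38 core and regulatory particle subunits, TMM-scaled CPM was 633 ± 21.1 in WT controls and 710 ± 20.2 after heat, and 648 ± 20.9 and 751 ± 33.8 in atcyp18-2 (SD, n = 3), so the sums did not overlap between control and heat in either genotype. The sum over RPN subunits went from 248 ± 1.88 to 281 ± 5.08 CPM in WT and from 254 ± 9.58 to 309 ± 8.31 CPM in the mutant. The sum over RPT ATPases went from 136 ± 7.84 to 157 ± 4.47 CPM and from 133 ± 10.5 to 165 ± 12.7 CPM. The sum over alpha subunits was 166 ± 18, 169 ± 9.14, 173 ± 12.6 and 167 ± 23.7 CPM in WT control, WT heat, atcyp18-2 control and atcyp18-2 heat, with overlap throughout. As a share of nuclear reads, with no TMM scaling, the direction was the other way: the 38 subunits took 0.201 to 0.251% in the control libraries and 0.169 to 0.198% in the heated ones, and the RPN subunits 0.0815 to 0.0968% and 0.0677 to 0.0779%. Neither measure was tested, and AT5G45620 and AT4G19006 of the fixed list of RPN subunits are in none of these sums.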
